A study of Mus musculus with 12 samples.

Results

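The enzymes, carrier and accessory proteins that turn citrate into palmitate were followed as a group of 10 genes in the livers of leptin-deficient mice on 2 protein intakes. The genes were chosen by name: Slc25a1, Acly, Acss2, Acaca, Acacb, Fasn, Me1, Mcat, Thrsp and Mid1ip1. Each matched 1 of the 56980 genes in the matrix, and all 10 were among the 13768 genes with enough counts to test. The samples were livers of male B6.Cg-Lepob/J (ob/ob, Lep-/-) mice, which carry no functional leptin, eat to excess and become obese. All mice were 8 weeks old at the start and 11 weeks old at harvest, lived on a 12-hour light and dark cycle and ate freely. For 3 weeks, 6 mice received chow with 25% of its energy as protein (SPD) and 6 received chow with 5% (LPD), and both groups lacked leptin. No lean or wild-type group is part of the comparison, so each difference is one between diets in ob/ob mice.

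Citrate made in mitochondria leaves through the citrate carrier and is cleaved in the cytosol to acetyl-CoA, which a biotin-dependent carboxylase turns into malonyl-CoA. Fatty acid synthase then joins acetyl and malonyl units, using NADPH, into palmitate. In liver these genes are known targets of the transcription factors SREBP-1c and ChREBP, which respond to insulin and to sugar, and their activity is high in ob/ob mice. Thrsp and Mid1ip1 encode a pair of related small proteins that promote lipogenesis, and Mid1ip1 binds acetyl-CoA carboxylase and favours its polymer form. Mcat differs from the rest, since it serves the separate fatty acid synthesis of mitochondria, which feeds lipoic acid.

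The sequence just before the start of transcription was compared for genes at the ends of the pathway. RefSeq start sites on GRCm38.p6 were matched for 9 of the 10 genes, all but Mcat, with 10 windows of 250 bases in all because Me1 has 2. The windows of Acaca, Acacb, Mid1ip1 and the second of Me1 lie inside the gene as GENCODE draws it, at a start site further in. Those of Acss2, Thrsp and the first of Me1 lie partly inside it. Shown are Fasn (chr11:120824548-120824797, minus strand), Acly (chr11:100528001-100528250, minus strand) and Slc25a1 (chr16:17928220-17928469, minus strand), because their windows end at the annotated start and because these genes mark the last step and the first steps. Capitals mark matches on either strand to CCAAT (the NF-Y motif), GGGCGG (the GC box bound by Sp1) and CACGTG (an E-box).
Fasn: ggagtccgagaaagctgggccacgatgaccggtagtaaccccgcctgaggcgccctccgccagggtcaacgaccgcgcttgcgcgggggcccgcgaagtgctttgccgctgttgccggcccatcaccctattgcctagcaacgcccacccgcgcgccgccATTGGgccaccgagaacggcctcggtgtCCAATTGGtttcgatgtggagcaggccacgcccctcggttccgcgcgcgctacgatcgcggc
Acly: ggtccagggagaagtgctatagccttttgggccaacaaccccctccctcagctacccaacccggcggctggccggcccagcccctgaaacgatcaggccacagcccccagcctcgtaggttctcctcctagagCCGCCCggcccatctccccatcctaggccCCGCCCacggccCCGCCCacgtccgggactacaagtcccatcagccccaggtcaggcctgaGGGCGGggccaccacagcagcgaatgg
Slc25a1: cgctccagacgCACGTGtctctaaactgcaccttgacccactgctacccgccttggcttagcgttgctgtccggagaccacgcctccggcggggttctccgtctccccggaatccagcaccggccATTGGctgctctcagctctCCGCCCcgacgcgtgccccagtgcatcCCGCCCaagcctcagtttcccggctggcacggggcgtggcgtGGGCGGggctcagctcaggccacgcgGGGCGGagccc
The Fasn window held 3 CCAAT matches, 90, 62 and 59 bases before the start, of which the latter 2 overlap on opposite strands. The Acly window held no CCAAT match and 4 GC boxes, and the Slc25a1 window held 1 CCAAT match, 4 GC boxes and 1 E-box. Thrsp had 2 CCAAT matches, 79 and 52 bases before its RefSeq start. Of the 10 windows, 6 held CCAAT, 5 GGGCGG and 1 CACGTG. Over all 32851 windows of this length, 33.8% held CCAAT, 32.7% GGGCGG and 6.02% CACGTG. The difference was not tested. The sterol response element, searched as TCACNCCAC on both strands, was in 1.05% of all windows and in 0 of the 10 windows of these genes, which says only that these letters are not in the 250 bases searched.

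The libraries held 19374676 to 23710930 counts each. On the first principal component of log2 CPM, with 51.7% of the variance, the scores ran from -27.4 to -20.4 for SPD and from 13.7 to 40.1 for LPD. Within LPD, replicates 2 and 5 were far from their group, scoring 40.1 and 36.8 where the remaining 4 scored at most 20.5. LPD replicate 1 carries a title and a library code of the low protein diet, but its treatment label names 25% protein. It was kept in LPD, and counting it as SPD instead gave a Fasn difference of -2.54 (edgeR, adjusted p = 0.00105). Library codes begin with SP1 or SP2 in SPD and with LP4 or LP5 in LPD, and what they stand for is not given, so codes and diet cannot be told apart. Hepatocyte markers were abundant in all livers: the summed level of 7 such genes ranged from 77241 to 85926 CPM in SPD and from 66054 to 91170 CPM in LPD. Of these 7 genes 3 rose and 4 did not pass (edgeR, adjusted p under 0.05). Marker counts here are to be read against all tested genes, of which 20.7% rose and 19.2% fell. Fat tissue also makes these lipogenic enzymes, and of 7 adipocyte markers 6 had too few counts to test. Adipoq, Plin1, Cfd, Retn, Adrb3 and Lep each averaged at most 0.241 CPM in either diet, and Retn and Lep were at 0 in all LPD livers. The exception was Car3, which hepatocytes express too and which rose from 476 ± 89.8 to 1182 ± 521 CPM (SD, n = 6). Markers of other liver cells were mostly not past the test, but 1 gene fell in each of 3 lists: Cd68 of 5 macrophage genes (-0.45), Col1a1 of 5 stellate cell genes (-1.11) and Kdr of 4 endothelial genes (-0.25). The summed levels ranged from 344 to 428 CPM in SPD and from 263 to 378 CPM in LPD for macrophages, from 348 to 515 and from 303 to 483 CPM for stellate cells, and from 214 to 254 and from 181 to 217 CPM for endothelial cells. Of 4 cholangiocyte genes none passed by edgeR, adjusted or unadjusted, with sums of 5.08 to 7.69 CPM in SPD and 4.51 to 9.98 CPM in LPD. The part of these cell types in the results below was not tested.

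The comparison asks how the messages for palmitate synthesis differed between the 2 diets. Chow with a smaller share of its energy as protein has a larger share from other nutrients, and these cannot be told apart here. Food intake was not examined. Of the 10 genes, 7 fell on the low protein diet, 0 rose and 3 did not pass the test (edgeR, adjusted p under 0.05). All 10 fold changes were below 1, so 0 rose at an unadjusted p under 0.05 either, and 0 rose with DESeq2 or limma-voom. Over all tested genes 39.9% passed, of which those that fell make up 19.2% of all tested genes and those that rose 20.7%. In each of the 7 genes that fell, all 6 LPD livers lay below all 6 SPD livers, a pattern found in 9.73% of all tested genes. A separation of the diets in either direction was found in 19.9%. The median log2 fold change of the 10 genes (LPD over SPD) was -1.62, against -0.00059 for all tested genes. The falls reached from 1.83-fold for the citrate carrier Slc25a1 to 6.74-fold for Fasn, and Mcat, Thrsp and Mid1ip1 are the 3 genes that did not pass. Levels below are CPM, counts divided by the TMM-scaled library total and expressed on a common scale, and a difference is a log2 fold change ± its standard error (SE), with 6 livers per diet. In RNA from whole liver, fewer cells of a type and less RNA per cell cannot be told apart.

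**Figure D1:**
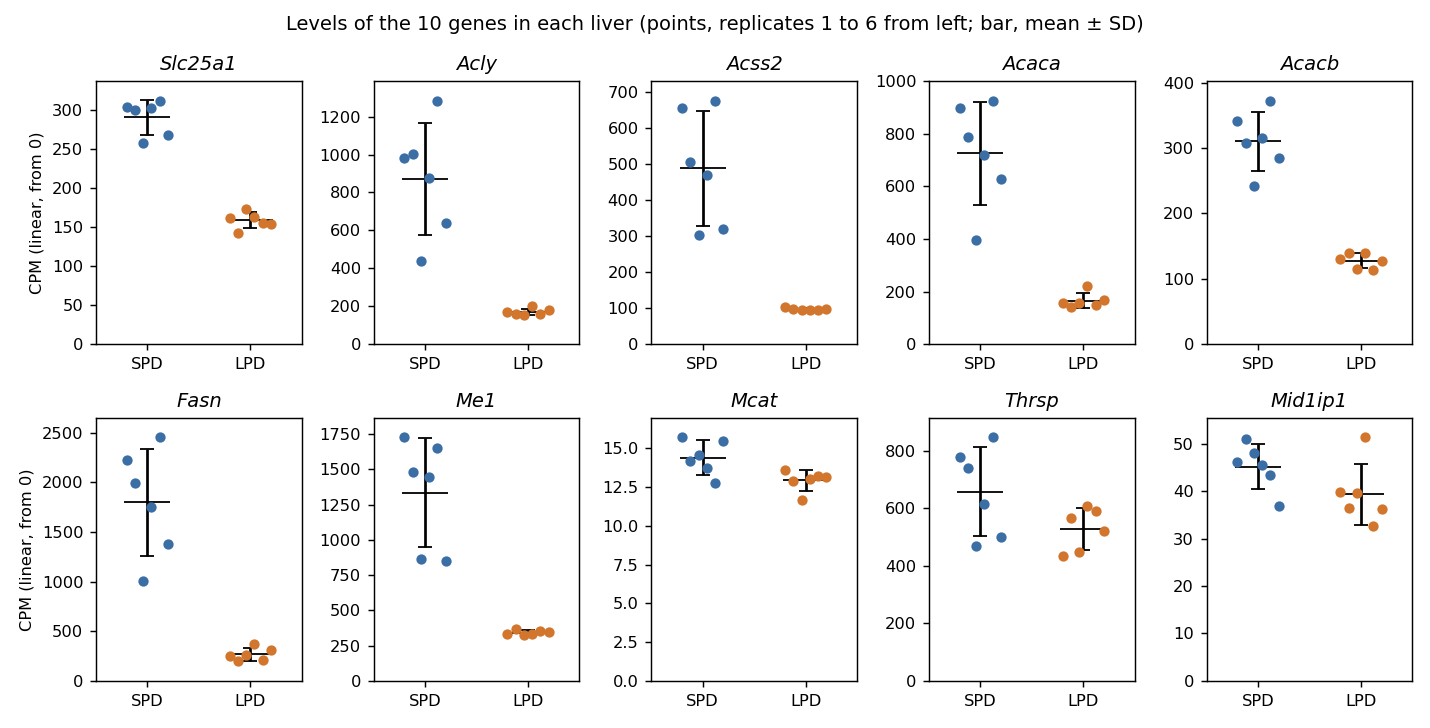
Level of each of the 10 genes in CPM on a linear axis from 0, with 1 point per liver (SPD blue, LPD orange) and bars for mean ± SD over 6 livers. All LPD points lie below all SPD points for Slc25a1, Acly, Acss2, Acaca, Acacb, Fasn and Me1, whereas the diets overlap for Mcat, Thrsp and Mid1ip1.

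Slc25a1, which carries citrate out of mitochondria (ENSMUSG00000003528, chromosome 16, 17925223 to 17928219, minus strand, GRCm38), ranged from 258 to 313 CPM in SPD livers, with a median of 302. In LPD livers it ranged from 143 to 174 CPM, with a median of 159. The diets did not overlap, and livers of 1 diet differed little among themselves, with a coefficient of variation of 7.65% in SPD and 6.52% in LPD. The difference was -0.87 ± 0.063 (edgeR, adjusted p = 1.55e-07). Among the 7 genes that fell this was the smallest fall, but its SE was small as well.

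Acly, ATP citrate lyase, which splits cytosolic citrate (ENSMUSG00000020917, chromosome 11, 100476353 to 100528000, minus strand), ranged from 439 to 1285 CPM in SPD livers with a median of 930. LPD livers held 157 to 199 CPM, with a median of 165. SPD replicate 3 was the lowest SPD liver and still held more than any LPD liver. Acly fell 5.11-fold (-2.35 ± 0.19, adjusted p = 4.85e-07 by edgeR).

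Acss2, which makes acetyl-CoA from acetate in the cytosol (ENSMUSG00000027605, chromosome 2, 155517948 to 155585724, plus strand), ranged from 303 to 676 CPM in SPD livers, with a median of 488. In LPD livers the range was 93.7 to 104.6 CPM, with a median of 95.9. The 6 LPD livers were closely alike, with a coefficient of variation of 4.21% against 32.5% in SPD. Acss2 fell 5.04-fold (-2.33 ± 0.18, adjusted p = 2.14e-07 by edgeR). The gene overlaps Gss on the opposite strand, which was at 89.2 CPM in SPD and 92.2 CPM in LPD. How the counting treated strand is not given in the sources used here.

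Acaca encodes the cytosolic acetyl-CoA carboxylase that makes malonyl-CoA for synthesis (ENSMUSG00000020532, chromosome 11, 84129672 to 84401651, plus strand). Its level ranged from 398 to 926 CPM in SPD livers, with a median of 753, and from 141 to 221 CPM in LPD livers, with a median of 158. LPD replicate 4 held the 221 CPM and the other 5 LPD livers at most 166 CPM, all below the lowest SPD liver. The difference was -2.14 ± 0.17 (edgeR, adjusted p = 4.14e-07), a 4.39-fold fall.

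Acacb encodes the carboxylase at the outer mitochondrial membrane, whose malonyl-CoA restrains fatty acid entry into mitochondria (ENSMUSG00000042010, chromosome 5, 114146535 to 114250761, plus strand). SPD livers held 242 to 373 CPM, with a median of 311, and LPD livers 114 to 139.8 CPM, with a median of 129. The diets did not overlap, and the fall was 2.43-fold (-1.28 ± 0.093, adjusted p = 1.55e-07 by edgeR).

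Fasn, fatty acid synthase, which builds palmitate (ENSMUSG00000025153, chromosome 11, 120805846 to 120824547, minus strand), ranged from 1005 to 2453 CPM in SPD livers with a median of 1868. LPD livers held 202 to 376 CPM, with a median of 252. LPD replicate 4 was the highest LPD liver and LPD replicates 2 and 5 were the lowest. Fasn made the largest fall of the 10 genes, 6.74-fold (-2.75 ± 0.21, adjusted p = 2.25e-07 by edgeR), and by the size of its fall it ranked 28 among the 13768 tested genes. Without LPD replicates 2 and 5 the difference was -2.60.

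Me1, cytosolic malic enzyme, one source of the NADPH that the synthase uses (ENSMUSG00000032418, chromosome 9, 86581371 to 86695953, minus strand), ranged from 847 to 1727 CPM in SPD livers. The SPD median was 1463 CPM. LPD livers lay between 322 and 366 CPM, with a median of 341. As for Acss2, LPD livers were closely alike (coefficient of variation 4.81%, against 28.9% in SPD). The fall was 3.90-fold (-1.96 ± 0.16, adjusted p = 4.67e-07 by edgeR).

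Mcat, malonyl-CoA transferase of mitochondrial fatty acid synthesis (ENSMUSG00000048755, chromosome 15, 83546797 to 83563787, minus strand), ranged from 12.8 to 15.7 CPM in SPD and from 11.6 to 13.6 CPM in LPD livers. The medians were 14.4 and 13.1 CPM, and the ranges overlapped. The difference was -0.16 ± 0.067 (edgeR, adjusted p = 0.0790) with a 95% interval of -0.30 to -0.012. It passed in 1 of 22 alternative fits, without SPD replicate 5 (adjusted p = 0.0393 by edgeR). Tspo overlaps Mcat on the opposite strand at 61.8 CPM in SPD and 55.6 CPM in LPD, so a part of the Mcat counts could be shared.

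Thrsp, a thyroid hormone responsive lipogenic protein (ENSMUSG00000035686, chromosome 7, 97412938 to 97417730, minus strand), ranged from 468 to 848 CPM in SPD livers, with a median of 678. In LPD livers the range was 433 to 608 CPM and the median 545. The groups overlapped: SPD replicates 3 and 6 lay inside the LPD range, and the other 4 SPD livers, from 614 CPM up, lay above it. The difference was -0.32 ± 0.14 (edgeR, adjusted p = 0.0857), with a 95% interval of -0.62 to -0.018. The call depended on the low SPD livers: adjusted p was 0.0246 without SPD replicate 3 and 0.0397 without SPD replicate 6, and with limma-voom, which weights the samples, it was 0.0369. With LPD replicate 1 counted as SPD the adjusted p was 0.383.

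Mid1ip1, the relative of Thrsp (ENSMUSG00000008035, chromosome X, 10715013 to 10719690, plus strand), ranged from 36.9 to 51.02 CPM in SPD and from 32.6 to 51.4 CPM in LPD livers. The means were 45.2 and 39.3 CPM, with coefficients of variation of 10.6% and 16.4%. LPD replicate 4 held the highest value of all 12 livers, and each of the other 5 LPD livers was below 5 of the 6 SPD livers. The difference was -0.20 ± 0.098 (edgeR, adjusted p = 0.122, 95% interval -0.41 to 0.011), and -0.29 without LPD replicate 4 (adjusted p = 0.0101).

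The makeup of the group changed with the diet. Summed over the 10 genes, SPD livers held 6539 ± 1760 CPM (SD, n = 6; 4038 to 8579) and LPD livers 1909 ± 155 CPM (1776 to 2197). Fasn took 27.3 ± 1.34% of this sum in SPD and 13.9 ± 2.48% in LPD, while Thrsp took 10.2 ± 0.767% and 27.6 ± 2.93%. Slc25a1 went from 4.68 ± 1.06% to 8.37 ± 0.910%. Per kilobase of the deposited gene length, which allows levels of different genes to be set side by side, Thrsp was the most abundant of the 10 in both diets, at 515 ± 122 CPM per kb in SPD and 414 ± 58.3 in LPD. Me1 came next, at 406 ± 118 and 104 ± 5.01 CPM per kb. In SPD livers Acss2 (228 ± 74.1), Acly (197 ± 67.1), Fasn (179 ± 53.6) and Slc25a1 (175 ± 13.4 CPM per kb) followed, with overlapping SDs. Acaca (76.3 ± 20.5), Acacb (35.3 ± 5.13), Mid1ip1 (22.4 ± 2.38) and Mcat (7.51 ± 0.572 CPM per kb) came after them. In LPD livers Slc25a1 moved up to the place after Me1, at 95.4 ± 6.22 CPM per kb, ahead of Acss2 (45.2 ± 1.90), Acly (38.5 ± 3.79) and Fasn (26.5 ± 6.53). Mid1ip1 (19.5 ± 3.19), Acaca (17.4 ± 3.02) and Acacb (14.5 ± 1.30 CPM per kb) then followed, each with an SD that overlaps that of its neighbour, and Mcat was last again at 6.74 ± 0.351. The genes share the same livers, so overlapping SDs do not show that their levels are alike within a liver, which was not tested.

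**Figure D2:**
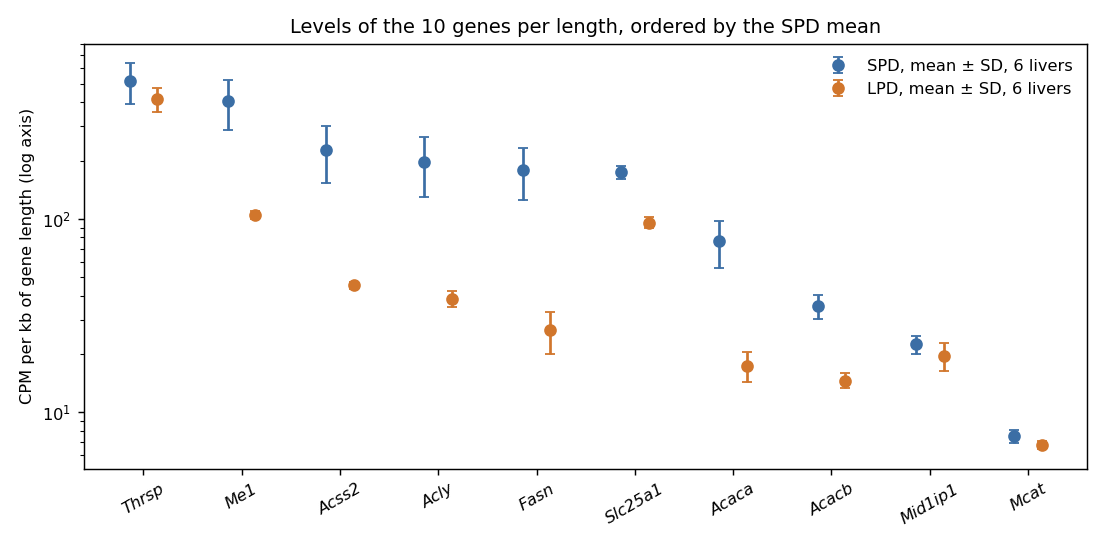
Mean level ± SD over 6 livers per diet in CPM per kb of gene length, on a log axis, for the 10 genes in the order of their SPD means. Thrsp leads in both diets, and in LPD livers Slc25a1 is above Acss2, Acly and Fasn, at 95.4 against 45.2, 38.5 and 26.5 CPM per kb.

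Whether genes of neighbouring roles fell by different amounts was tested on their ratio within each liver, which no scaling between libraries affects beyond the small constant added. The pairs were set by role, but with earlier results of these data known, so the p-values do not come from an independent test. Of 6 pairs, 4 changed their ratio with the diet, and in each of the 4 the diets did not overlap (exact two-sided permutation test, p = 0.00216, the smallest that 924 labelings allow, adjusted p = 0.00325 over the 6 pairs). Acly fell further than the carrier before it: Acly was 2.83 times Slc25a1 in CPM in SPD livers and 1.07 times in LPD livers, a difference in log2 ratio of -1.40 ± 0.19 (SE). In the cytosolic step from malonyl-CoA to palmitate, Fasn fell further than Acaca (-0.63 ± 0.071). Acacb fell less than its paralog Acaca (0.82 ± 0.13), so that the ratio of Acacb to Acaca in CPM went from 0.440 to 0.779. Me1 fell less than Fasn (0.82 ± 0.17).

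For 2 pairs no difference in response was found. The log2 ratio of Acss2 to Acly, the acetate and citrate routes to acetyl-CoA, was -0.82 ± 0.21 (SD, n = 6) in SPD and -0.81 ± 0.15 in LPD livers. The difference of 0.013 had an exact permutation interval of -0.22 to 0.24 (adjusted p = 0.913), so a difference of up to about these sizes cannot be told from none. The ratio of Mid1ip1 to Thrsp differed by 0.089, with an interval of -0.32 to 0.49 (exact permutation test, adjusted p = 0.758). For 2 more pairs the ratio is given as a description with no test, since the fall of Fasn and the lack of a call for Mcat and Thrsp were known. Earlier results of these data were also known when the 6 tested pairs were chosen. Thrsp was at 0.373 times the CPM of Fasn in SPD livers and 2.01 times in LPD livers, with log2 ratios of -1.53 to -1.101 in SPD and 0.69 to 1.49 in LPD. The ratio of Mcat to Fasn differed by 2.58 ± 0.26 (SE).

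**Figure D3:**
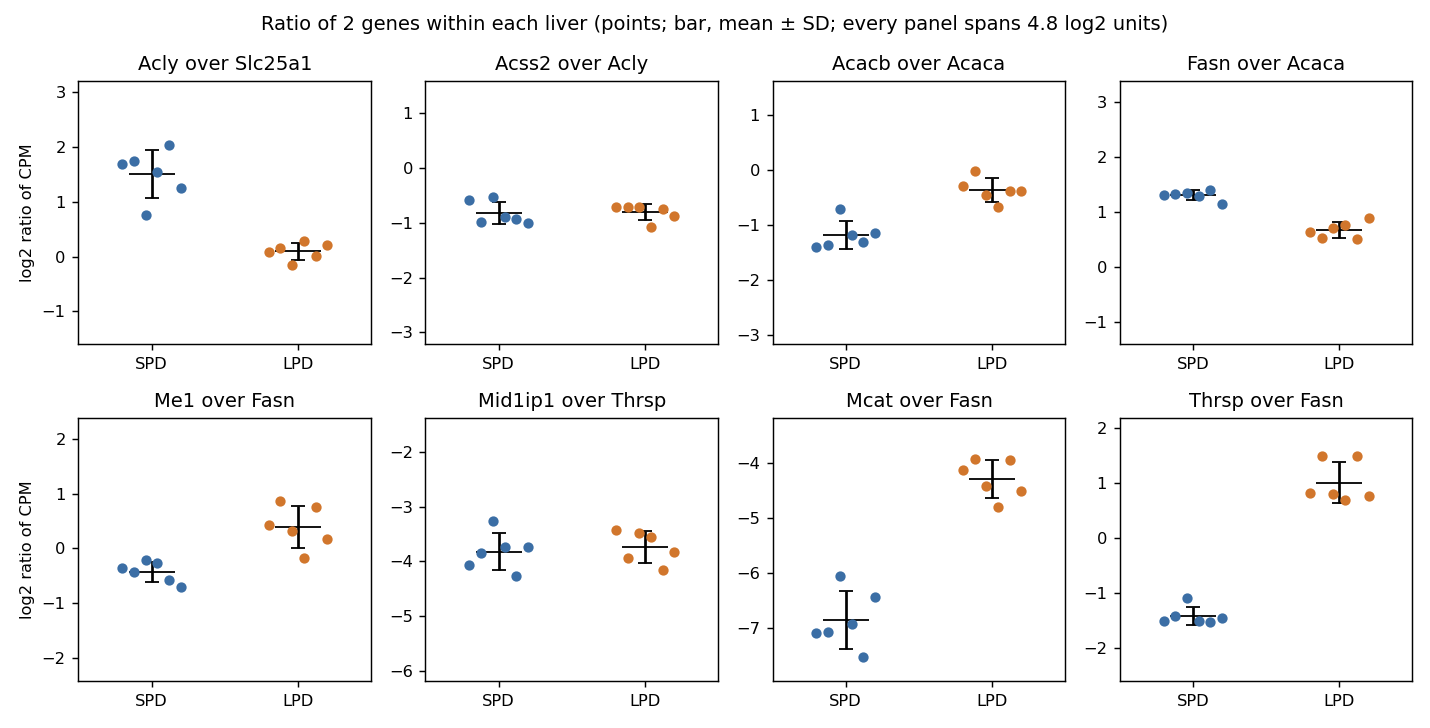
Log2 ratio of CPM of 2 genes within each liver (points) with mean ± SD per diet, for the 6 tested pairs and the 2 described ones. Points of the diets separate for Acly over Slc25a1, Acacb over Acaca, Fasn over Acaca, Me1 over Fasn, Mcat over Fasn and Thrsp over Fasn, and overlap for Acss2 over Acly and Mid1ip1 over Thrsp.

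Among SPD livers most of the 10 genes moved together. SPD replicate 5 was the highest SPD liver for 7 of the 10 genes and SPD replicate 3 the lowest for 7. Acss2, Acaca and Thrsp ranked the 6 SPD livers in the same order as Fasn, from replicate 5 through 1, 2, 4 and 6 to 3. Replicates 3 and 6 were the lowest pair for Fasn and for 7 of the other 9 genes, the exceptions being Mcat and Mid1ip1. Outside the group, Scd1, Elovl6 and Mlxipl had the same lowest pair and Srebf1 did not. The share of all tested genes with this pair lowest was not computed. So Thrsp, which did not pass between diets, followed the order of Fasn within the standard diet. Among LPD livers 0 of the other 9 genes had the order of Fasn, and LPD replicate 4 was the highest for 5 of the 10. The coefficient of variation was larger in SPD than in LPD for 9 of 10 genes, with Mid1ip1 as the exception (10.6% and 16.4%). For Acly it was 34.1% and 9.83%, and for Fasn 29.9% and 24.6%. The spread was not tested. SPD replicates 3 and 6 had 21748082 and 19854874 counts, within the range of the other SPD livers. Their TMM scaling factors, 1.011 and 1.022, were above those of the other SPD livers (0.9533 to 0.9785). What sets these 2 livers apart was not tested.

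**Figure D4:**
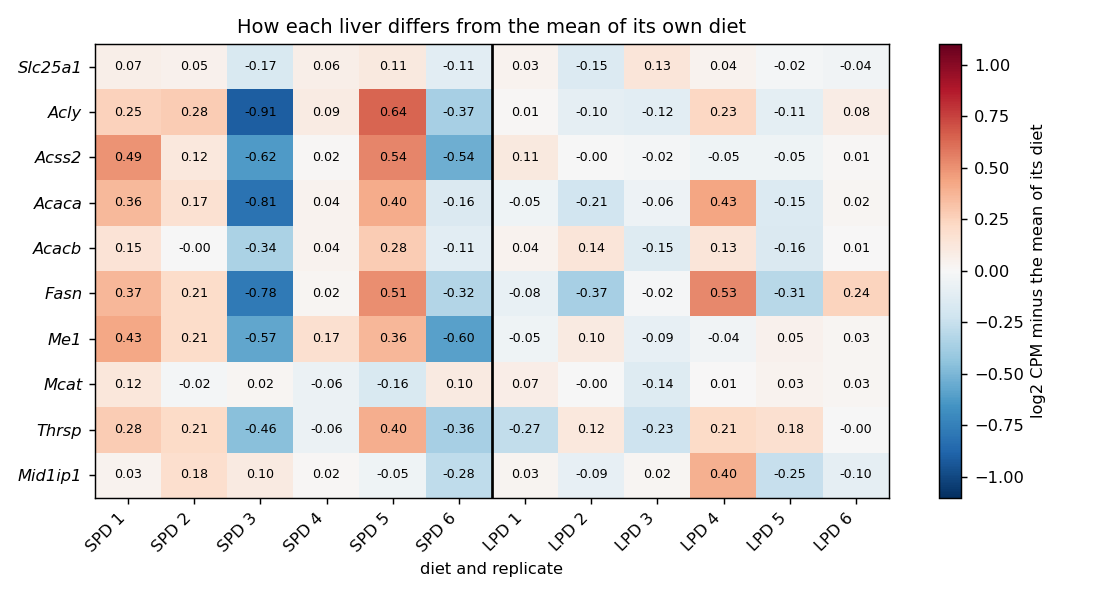
Log2 CPM of each gene in each liver minus the mean of its own diet, with the value in each cell (red above, blue below the diet mean). SPD replicates 3 and 6 are below the mean for Slc25a1, Acly, Acss2, Acaca, Acacb, Fasn, Me1 and Thrsp, and LPD livers deviate less for most genes.

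Genes that act around the 10 were then counted in 7 lists, whose counts are to be read against the 39.9% of all tested genes that passed (19.2% lower, 20.7% higher) and their median log2 fold change of -0.00059. For citrate supply, 17 genes were tested: 7 passed as lower and 2 as higher, and the median log2 fold change was -0.11. The pyruvate dehydrogenase subunit Dlat fell from 110.3 ± 14.1 to 73.4 ± 3.59 CPM (-0.59 ± 0.076) and cytosolic isocitrate dehydrogenase Idh1 fell by 0.40 ± 0.062 on the log2 scale. The 2 that rose were the subunits of the mitochondrial pyruvate carrier, Mpc1 (0.36 ± 0.064) and Mpc2 (0.25 ± 0.079). Mpc1 no longer passed once LPD replicate 1 was moved to SPD (adjusted p = 0.0658 by edgeR), and Mpc2 missed the threshold among SP1 and LP4 libraries and after removal of LPD replicates 2 and 5 (adjusted p up to 0.122). With LPD replicate 1 counted as SPD, 3 genes of this list fell and 1 rose.

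Of 9 tested genes of NADPH supply 7 fell and 2 did not pass (median -0.54). Both dehydrogenases of the pentose phosphate pathway fell: Pgd from 228 ± 44.0 to 70.9 ± 10.3 CPM (-1.68 ± 0.13) and G6pdx from 18.3 ± 3.71 to 7.67 ± 1.18 CPM (-1.25 ± 0.13). Transaldolase Taldo1 fell by 0.67 ± 0.066 on the log2 scale. Of the 2 remaining isoforms of malic enzyme, Me2 fell (-0.54 ± 0.15) and Me3, at 0.260 CPM in SPD, was not tested.

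Genes of side reactions of acetyl-CoA and malonyl-CoA moved both ways, with 3 of 7 fallen, 2 risen and 2 not past (median -0.24). Hlcs, which attaches biotin to the carboxylases, fell from 36.8 ± 3.69 to 24.7 ± 2.98 CPM (-0.57 ± 0.083), and Acss3, a mitochondrial acyl-CoA synthetase, fell too (-0.56 ± 0.10). Biotinidase Btd, which frees biotin for reuse, rose (0.40 ± 0.069), as did the acetyl-CoA hydrolase Acot12 (0.27 ± 0.070), which missed the threshold when the SP1 and LP4 libraries were fitted by themselves (adjusted p = 0.0717 by edgeR). Malonyl-CoA decarboxylase Mlycd, which removes malonyl-CoA, was at 78.8 ± 3.14 and 80.97 ± 6.00 CPM (0.039 ± 0.055, adjusted p = 0.610 by edgeR).

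The mitochondrial synthesis list, to which Mcat belongs, had 1 of 8 tested genes fallen, 1 risen and 6 not past, with a median of 0.041. The reductase Mecr fell (-0.46 ± 0.080) and Lipt2, an octanoyl transferase of lipoate synthesis, rose (0.44 ± 0.15). The Lipt2 call was lost in 11 of 22 alternatives, among them the removal of SPD replicate 1, 2 or 6 or of LPD replicate 1, 2 or 4 (adjusted p up to 0.179 over all alternatives). The condensing enzyme Oxsm was at 44.9 ± 2.60 CPM in SPD and 46.1 ± 3.51 CPM in LPD livers. Hsd17b8 was not matched by symbol and was not analysed here.

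Genes of fatty acid elongation and desaturation, not all of which act on palmitate, were mostly lower: 11 of 13 fell, 1 rose and 1 did not pass (median -0.89). Scd1, the stearoyl-CoA desaturase, ranged from 32314 to 51895 CPM in SPD and from 5516 to 7581 CPM in LPD livers. Elovl6, which extends palmitate, ranged from 551 to 1355 CPM in SPD and from 76.2 to 138 CPM in LPD livers (-3.28 ± 0.23), and the desaturase Scd2 fell by 3.51 ± 0.21 on the log2 scale. The exception was the elongase Elovl3, which rose 5.59-fold from 4.86 ± 2.03 to 27.2 ± 10.7 CPM (2.48 ± 0.31, adjusted p = 1.95e-05 by edgeR).

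Regulators of lipogenic transcription went both ways, with 4 of 17 fallen, 5 risen and 8 not past (median 0.022). Srebf1, which encodes SREBP-1, ranged from 131 to 233 CPM in SPD livers and from 138 to 160 CPM in LPD livers (adjusted p = 0.646 by edgeR). The 233 CPM came from SPD replicate 3, the liver with the lowest SPD levels of Fasn, Acly, Acaca, Acss2, Acacb, Slc25a1 and Thrsp, and the other 5 SPD livers held at most 157 CPM. Of the proteins that process SREBP, Insig1, which holds it in the endoplasmic reticulum and is itself an SREBP target, fell from 354 ± 47.9 to 116 ± 19.8 CPM (-1.61 ± 0.11), and the escort protein Scap fell by 0.43 ± 0.071 on the log2 scale. Usf2, an E-box factor, rose by 0.22 ± 0.052, which no longer passed once LPD replicate 1 was moved to SPD (adjusted p = 0.0789 by edgeR). Mlxipl, which encodes ChREBP, ranged from 41.1 to 55.7 CPM in SPD and from 51.9 to 65.9 CPM in LPD livers (0.23 ± 0.084), and its call was lost in 11 of 22 alternatives (adjusted p up to 0.168), among them the removal of SPD replicate 1, 3, 4 or 6 or of LPD replicate 2, 4 or 5. The count of risen regulators was 2 without LPD replicates 2 and 5 together. It was 3 after the removal of SPD replicate 3, 4 or 6 or of LPD replicate 2, 4 or 5. Counting LPD replicate 1 as SPD also gave 3.

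AMPK phosphorylates and restrains both acetyl-CoA carboxylases. In the list of its subunits and other carboxylase controls, 3 of 10 rose, 1 fell and 6 did not pass (median 0.052), so 4 of 10 passed where 39.9% of all tested genes did. The upstream kinase Stk11 rose from 44.7 ± 2.97 to 54.97 ± 4.39 CPM (0.30 ± 0.062) and the subunit Prkab1 rose by 0.27 ± 0.071. Brca1, a DNA repair protein that also binds phosphorylated carboxylase, fell (-0.89 ± 0.14, 4.97 to 2.68 CPM).

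**Figure D5:**
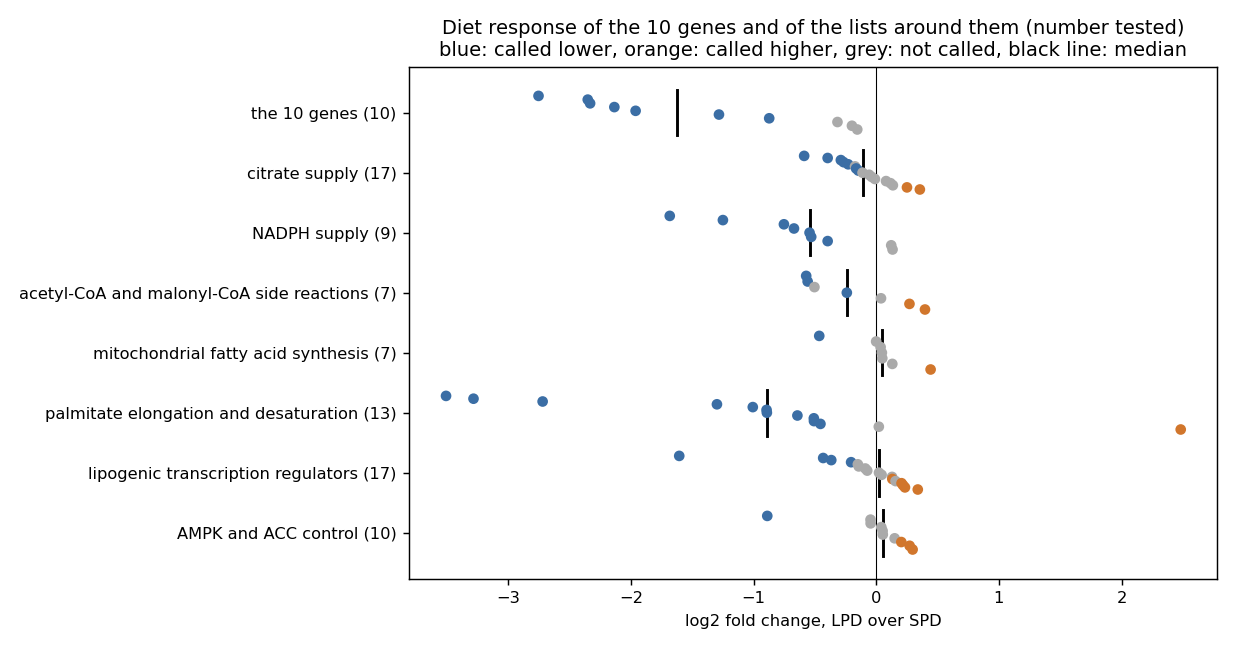
Log2 fold change (LPD over SPD) of each of the 10 genes and of the tested genes of the 7 lists around them, with Mcat drawn among the 10 only, which leaves 7 points in the mitochondrial row. Blue points fell, orange points rose and grey points did not pass; the black line is the median of the points in a row, which is -1.62 for the 10 genes.

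Among all other tested protein-coding genes, those whose profile over the 12 livers lay closest to that of Fasn were sought. The measure was the root mean square difference of log2 CPM, with 0.5 added to CPM and each gene centred on its own mean. The 5 closest were Elovl6 (0.293), Scd1 (0.323), the mevalonate pathway enzyme Mvd (0.325), the lipid droplet protein Pnpla3 (0.330) and its relative Pnpla5 (0.383). Mvd was at 36.8 ± 11.2 CPM in SPD and 6.91 ± 2.003 CPM in LPD livers (-2.41 ± 0.22), and Pnpla5 was at 2.25 ± 0.856 and 0.106 ± 0.108 CPM (-4.33 ± 0.46). Pnpla3 was at 4.76 ± 1.57 and 0.465 ± 0.200 CPM. The added 0.5 shrinks the changes of genes at so low a level. By edgeR Pnpla5 fell further than Fasn (-4.33 against -2.75), so its place among the closest rests on that constant. The place of Pnpla3 may depend on it too. Since each gene is centred over both diets, this distance depends on the size of the diet change as well as on livers within a diet. Within the group of 10, Acly lay nearest to Fasn, at 0.276, and nearer than any other tested gene. Acaca (0.334) and Acss2 (0.337) followed, then Me1 (0.492), Acacb (0.776) and Slc25a1 (0.978). Thrsp was at 1.24, further from Fasn over both diets, although the 2 genes shared their order within SPD.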

How the data were processed

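Livers of 12 mice, 6 per diet, were profiled by bulk RNA sequencing with an Illumina TruSeq kit, per the labels' protocols. The submitters' processing notes name TopHat, DESeq2 and mm10, without role or version. The authors deposited estimated counts per gene, which are not scaled to a common total, as the values show, and of which 17.1% to 18.9% of those above 0 are not whole. The sources used here do not name the counting program or its handling of strand and shared reads. A deposited gene length column gave CPM per kb.

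Counts were rounded and tested in R 4.3.3 with edgeR 4.0.16 (filterByExpr with minimum count 10 and minimum total 15, TMM, quasi-likelihood F test, Benjamini-Hochberg adjustment over 13768 genes, called at 0.05). Genes without a symbol held 0.146% to 0.247% of counts and stayed in the fit. SE is the absolute log2 fold change over the square root of F, and 95% intervals use the fit's degrees of freedom. Log2 CPM and log2 ratios used CPM plus 0.5. Intervals of ratios are the shifts that the exact permutation test over samples does not reject. Counting error weighs most on genes of low level, such as Mcat and Pnpla5. The labels give 6 mice per group. The test was checked on simulated data.

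Coordinates are GENCODE M21 on GRCm38, and 52073 gene IDs matched. Named genes are the 10, Scd1, Elovl6, Srebf1, Mlxipl and G6pdx, up to 3 called genes with the smallest adjusted p and 2 against the majority per list, and the 5 nearest to Fasn. Others (Me2, Me3, Mlycd, Oxsm, Car3, Cd68, Col1a1, Kdr and the overlapping genes) were named after their values were seen. The genes, pairs and lists were chosen with earlier results of these data known. Alternatives were other scalings and filters, DESeq2 1.42.0, limma-voom (limma 3.58.1), a replicate block, and left-out or relabelled libraries. Same-numbered livers of the 2 diets share only a number (correlations of -0.083 to 0.11).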

Additional observations from a re-analysis of the deposited data

Results flagged for a closer look

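In each diet, the highest and lowest of the 6 livers were tested for distance from the others, in 20 groups of 6 (10 genes, 2 diets). Chance flags about 1 group in 20, and 3 were flagged, all in LPD. Acaca stood at 221 CPM in LPD replicate 4, above 141 to 166 CPM in the other 5 livers. Acss2 stood at 104.6 CPM in LPD replicate 1, the library whose treatment label names 25% protein, above 93.7 to 97.5 CPM in the other LPD livers and far below the 303 CPM of the lowest SPD liver. Mcat stood at 11.6 CPM in LPD replicate 3, below 12.9 to 13.6 CPM in the others.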

How the results depend on the processing

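The count of 7 fallen genes among the 10 stayed between 7 and 8 in all 22 alternatives, and the falls of Slc25a1, Acly, Acss2, Acaca, Acacb, Fasn and Me1 passed in each. The 4 pairs whose ratio changed kept their call in all 17 alternatives run for ratios, SP1 and LP4 libraries by themselves included. The highest adjusted p was 0.0469 (exact permutation test). Alternatives with few possible labelings cannot give a much smaller value, so they had little room below 0.05. Where libraries were only left out, the outcome was set in advance. The diets did not overlap in these 4 pairs, so p was the smallest that the remaining labelings allow. The calls kept in those alternatives are therefore no further support. The replicate block, which takes same-numbered livers as pairs, left 7 fallen and changed no call among the 10 genes; Fasn was at -2.73 with it. Only 2 of 6 livers correlated best with their own number. Without a filter on low counts, 4 genes of citrate supply fell instead of 7. In all lists together, with Mcat left out, 33 genes fell and 14 rose. Over all tested genes 19.2% fell and 20.7% rose (edgeR, adjusted p under 0.05). The risen count of the lists was 9 when only SP1 and LP4 libraries were fitted, 8 without LPD replicates 2 and 5, and 11 to 14 with 1 library left out. The cause was not tested. Of the 2 pairs without a difference, Acss2 over Acly changed sign in 10 of the 17 alternatives and Mid1ip1 over Thrsp in 2, as values near 0 can. With LPD replicate 1 counted as SPD, Acss2 over Acly was at -0.023 and Mid1ip1 over Thrsp at -0.027. Acss2 over Acly was at -0.054 with SP1 and LP4 libraries only and at -0.025 without LPD replicates 2 and 5. With 1 library left out it ranged from -0.022 to 0.071, and Mid1ip1 over Thrsp from -0.00074 to 0.20. The sign of Srebf1 turned with limma-voom and without SPD replicate 3 (up to 0.071).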
